A study of Rattus norvegicus with 42 samples.

Results

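A divergent pair consists of 2 transcription start peaks on opposite strands that point away from each other, with the minus-strand peak on the left and the plus-strand peak on the right. Such pairs were collected from the deposited start peaks outside the mitochondrial genome: each minus peak was joined to the nearest plus peak that began 0 to 500 nt after its end. The rule gave 191 pairs, made of 191 minus peaks and 183 plus peaks, so 374 of 9969 peaks (3.75%) were members. Of the plus peaks, 8 were shared by more than 1 minus peak, and 16 pairs contained such a peak. Pairs were numbered P001 to P191 in the order of chromosome names and position, and all positions are 1-based on the rat build Rnor_6.0.

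The libraries came from 2 hindlimb muscles of mature Wistar rats, the slow, postural soleus and the fast extensor digitorum longus (EDL). Animals were active controls (C), were unloaded by tail suspension for 1, 3 or 7 days (D1, D3, D7), or were unloaded for 7 days and then reloaded for 1, 3 or 7 days (R1, R3, R7). Each of the 7 phases held 3 animals, and both muscles were taken from every animal, which gave 42 libraries of cap analysis of gene expression (CAGE). The groups carry no allele, transgene or drug, the whole muscle was extracted, and the rats of the R groups had been suspended for the same 7 days as those of D7.

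In CAGE, the capped 5′ end of an RNA is captured and sequenced. Each tag marks the nucleotide and the strand of such an end, which is read as a start of transcription. Many mammalian promoters are known to fire in both directions: a core promoter on each edge of a single nucleosome-free region starts transcription outward. The second direction may serve a neighbouring gene in head-to-head order, an antisense RNA, or a short unstable transcript. Active enhancers give the same outward pattern, usually at lower and more even levels. The peak table lists positions and strands without genes, and it was not joined to any annotation. The members are therefore described by position, and gene partners, muscle markers and sequence motifs were not analysed here.

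The gap between the 2 peaks ran from 1 to 494 nt with a median of 141 nt. Short gaps prevailed: 77 pairs had a gap of at most 100 nt, 48 of over 100 to 200 nt, 30 of over 200 to 300 nt, 19 of over 300 to 400 nt and 17 of over 400 to 500 nt. At the edge of the rule, the widest gaps inside were 488 and 494 nt, and the narrowest outside exceeded the limit by 1 and 7 nt. The highest positions of the 2 peaks lay 353 nt apart (median; quartiles 246.5 and 537 nt). Member peaks had a median width of 189 nt, against 208 nt in the other 9595 peaks.

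**Figure D1:**
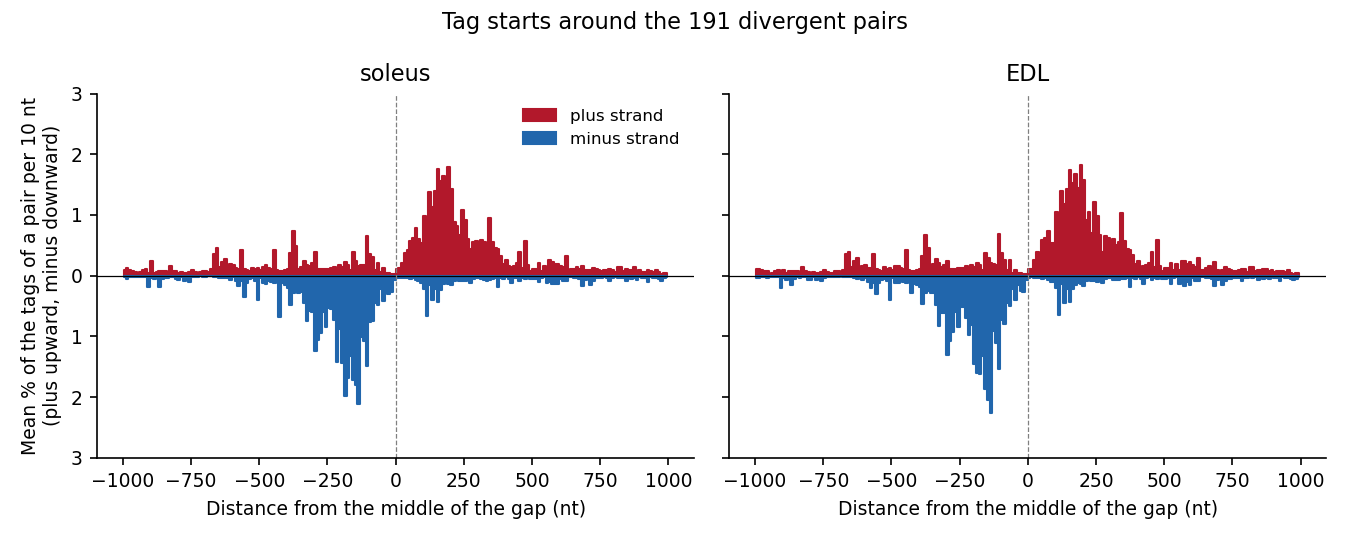
Mean share of the tags of a pair (y axis, % per 10 nt) against the distance from the middle of the gap (x axis, nt) over 191 pairs, with plus-strand tags drawn upward in red and minus-strand tags downward in blue, for soleus (left) and EDL (right). In both muscles the minus strand is highest 135 nt to the left and the plus strand 195 nt to the right.

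Transcription left the gap on both sides with a similar shape in the 2 muscles. Within 1000 nt of the middle, minus-strand tags on the left made up 37.3% of the tags of a pair in soleus and 36.7% in EDL, and plus-strand tags on the right 39.1% and 40.1%. The gap held a median of 0.060% of the tags of the 2 peaks, which the rule largely fixes, since the gap is the stretch between 2 called peaks. Plus-strand tags left of the middle made up 15.2% in soleus and 14.7% in EDL, and minus-strand tags right of it 8.40% and 8.49%. Opposite-strand transcription of this size was uncommon at the other peaks. In the 500 nt upstream of the peak, the tags of the opposite strand amounted to a median of 0.149% of the tags of the peak in the 9595 other peaks, 10.1% of which had none and 6.37% of which reached 10%, and to 25.3% in the 190 distinct stronger peaks of the pairs, where the rule itself requires an opposite peak.

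The depth ranged from 1778712 to 23103236 mapped tags per library (median 9354058.5), in peaks or outside them. Its median was 11577496 tags over soleus libraries and 6991564 over EDL libraries. Members held 14.4% to 26.1% of the mapped tags of a library (median 18.8%). This large share came from few places, because the 191 pairs were of 3 unlike kinds. Copied pairs, 34 in number, had at least 1 look-alike: a peak on another chromosome or more than 10000 nt away whose level followed it with a Pearson r of at least 0.99 and within 0.5 on the log2 scale in every library. Clustered pairs, 44 in number, had no look-alike but more than 2 other peaks within 5000 nt. The remaining 113 pairs had neither and are called stand-alone pairs.

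Stand-alone pairs took a median of 2.20% of all tags over the 42 libraries (1.82% to 2.80%). Their median level was 12.8 CPM (tags per 1000000 normalized tags) on the minus strand and 12 CPM on the plus strand. Clustered pairs took 0.529% of all tags (0.320% to 3.18%), with medians of 7.70 and 14.5 CPM. Copied pairs took 15.3% (11.9% to 22.7%), with medians of 489 and 1815 CPM. Look-alikes were found for 51 of 374 members (13.6%) and for 119 of 9595 other peaks (1.24%).

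The 34 copied pairs lay at a few places: 11 of them within chr1:11903577-11975287, 11 within chr14:46329466-46688523, 6 within chr5:91129448-91141194 and 3 within chr6:30631993-31049651. The study's methods allowed reads to map to up to 20 places at first, and how such tags were counted in this table is not given in the sources used here. If look-alikes are copies of the same sequence, tags may be split or repeated between them, and the level of each copied pair is uncertain. In P145 and P164, for example, the minus peak alone had a look-alike. The copied kind was set by matching levels outside the mitochondrial genome, and no sequence was compared. The 4 strongest pairs all belonged to this kind. In P156, at chr6:30631993-30632478 and chr6:30632514-30633833, the minus peak had 1537, 1146 and 1298 CPM and the plus peak 12653, 11470.0 and 10295 CPM in the 3 soleus controls. The 3 EDL controls had 1439, 2528 and 2654 CPM on the minus strand and 12459, 17471 and 17443 CPM on the plus strand. The muscles overlapped on both strands, and neither peak passed the test (edgeR adjusted p = 0.575 and 0.376). The other 3 strongest pairs, P073, P071 and P008, had mean levels of 1719, 1737 and 1736 CPM on the minus strand and 12668, 12440 and 8983 CPM on the plus strand, so that P008 was lower on the plus strand.

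Over the chromosomes, the 191 pairs fell into 124 sites more than 500000 nt apart, and 22 sites with more than 1 pair held 89 of the pairs. A site on chromosome 10, chr10:53746218-53797599, held 9 clustered pairs, and a site on chromosome 15, chr15:33332959-33658337, held 8 pairs, of which 7 were clustered. Pairs of the same site are not independent of each other, and the counts of pairs with both peaks called are given below with their sites.

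In each pair the 2 strands were unequal. The weaker strand held a median of 22.6% of the tags of the pair (quartiles 9.35% and 35.3%), at a median of 23.7% over soleus libraries and 19.97% over EDL libraries. In 50 pairs the weaker strand stayed under 10%, and in 36 pairs it reached 40% or more. The plus strand was the stronger in 106 pairs and the minus strand in 85. In 99 pairs none of the 42 libraries departed from the strand that led in the mean, and in the other 92 pairs at least 1 did. A library with equal levels on both strands, such as no tag on either, counted as a departure in minus-led pairs and not in plus-led pairs. The leader in the mean can also rest on few libraries, since in P119 39 libraries departed from it. Stand-alone pairs were the most even, with a weaker share of 27.8%, against 16.6% in clustered and 12.8% in copied pairs.

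**Figure D2:**
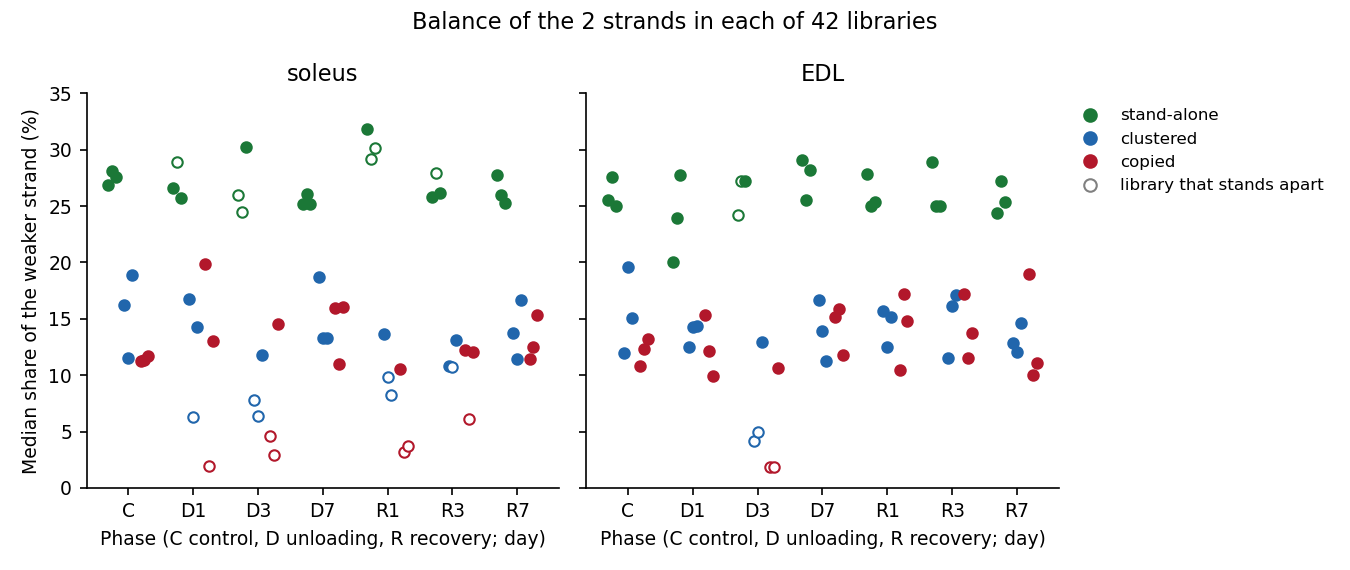
Median share of the weaker strand (y axis, %) in each library, by phase (x axis) and muscle, for stand-alone (green), clustered (blue) and copied (red) pairs, where each point is 1 library and open points mark 8 libraries that stand apart. Stand-alone pairs stay between 20% and 31.9% in all 42 libraries, whereas copied pairs lie between 1.85% and 6.12% in the 8 open points and between 9.94% and 19.9% in the other 34.

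The balance of copied pairs separated 8 libraries from the rest. In these 8 the weaker strand of copied pairs held 1.85% to 6.12% of the tags, against 9.94% to 19.9% in the other 34 libraries, with no overlap. Clustered pairs leaned the same way, at 4.12% to 10.75% against 10.78% to 19.6%, but the 2 ranges adjoin without a break. Stand-alone pairs did not, since the 8 libraries lay at 24.3% to 30.1% and the others at 20% to 31.9%. The 8 libraries were soleus D1 animal 25, soleus D3 animals 9 and 10, soleus R1 animals 20 and 21, soleus R3 animal 5 and EDL D3 animals 9 and 10. They thus include 2 of the 3 libraries in each of EDL D3, soleus D3 and soleus R1. The soleus R1 counts and the EDL D3 balance count are also given without them. The soleus D3 counts, the EDL D3 members and the named pairs are not. These 8 were singled out by the share in copied pairs after the values were seen, and they are not a group of the study. They were also deep, at 12558292 to 23103236 tags against a median of 9354058.5 over all libraries. Several libraries with depths inside that range did not stand apart. In soleus these were C animal 6 (16652474 tags), D1 animal 26 (14180286) and R1 animal 18 (14123232). In EDL they were D1 animal 26 (14556431), D3 animal 11 (17405735), D7 animal 3 (14549791) and R7 animal 19 (14022389). A link with depth was not tested.

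The 2 strands of a pair moved together to very different degrees. Over 42 libraries, Pearson's r between the log2 CPM of the minus and the plus peak had a median of 0.33 (Spearman's rho 0.31), quartiles of -0.01 and 0.75, and a range from -0.72 to 0.99, and it was negative in 51 pairs. The median was 0.24 within soleus, 0.31 within EDL, and 0.29 after each group mean was taken out. For comparison, all 23310043 combinations of a minus and a plus peak on different chromosomes had a median of 0.01. All these values share the same 42 libraries and are given as a description.

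The 3 kinds differed widely. Stand-alone pairs had a median r of 0.16, and 40 of the 113 were negative. Clustered pairs had 0.88 (0.53 with group means taken out), and 1 of 44 was negative. Copied pairs had 0.45, which rose to 0.77 without the 8 libraries that stand apart, while stand-alone pairs moved only to 0.21 and clustered pairs to 0.91. These 8 libraries were picked by the strand share of the copied pairs themselves. The rise in copied pairs was therefore favoured by that choice and is not a separate difference between the kinds.

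Stand-alone pairs with both peaks at 10 CPM or more, 44 in number, had a median of 0.20, so the low value was not limited to weak peaks. It did depend on the scaling. With plain library totals in place of trimmed mean of M-values (TMM) factors, the median was 0.50 over all pairs, 0.43 in stand-alone, 0.87 in clustered and -0.01 in copied pairs, while combinations on different chromosomes also rose, to 0.20.

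**Figure D3:**
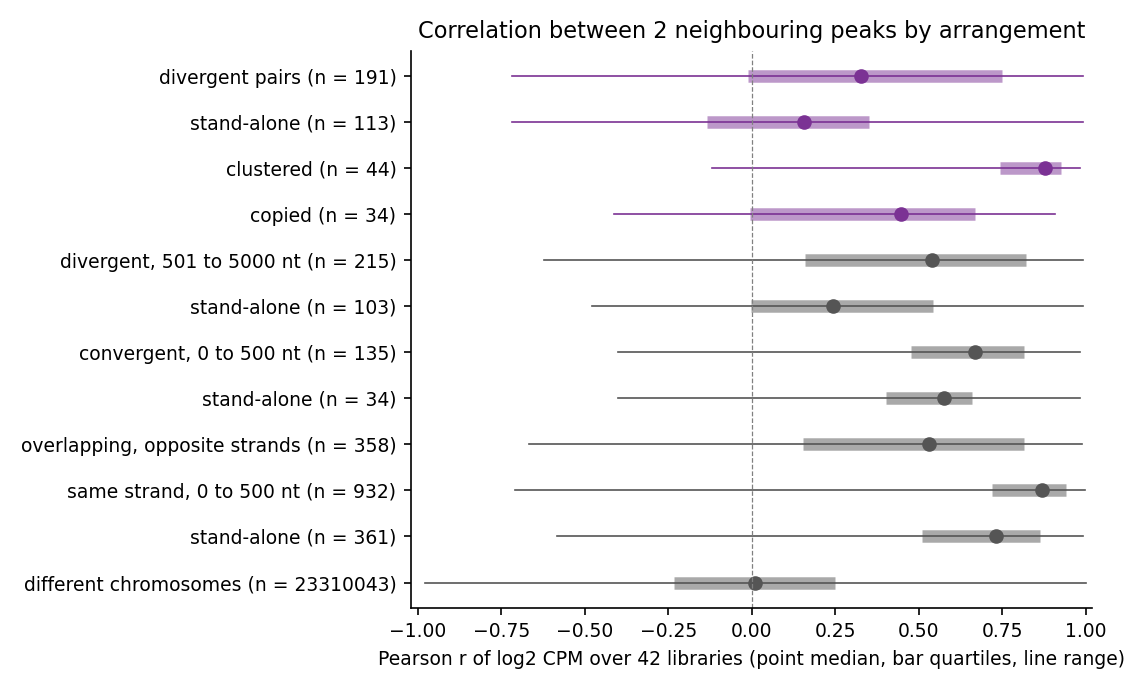
Pearson r of log2 CPM over 42 libraries (x axis) between 2 neighbouring peaks, for divergent pairs (purple) and other arrangements (grey), where the point is the median, the bar spans the quartiles and the line the range. Stand-alone divergent pairs have a median of 0.16, below the 0.58 of stand-alone convergent pairs and the 0.73 of stand-alone peaks that follow each other on 1 strand.

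Over all 42 libraries, other neighbouring peaks gave higher medians. Peaks that follow each other on the same strand within 500 nt had a median r of 0.87 (932 combinations), convergent peaks 0.67 (135), peaks that overlap on opposite strands 0.53 (358), and divergent peaks with a wider gap of over 500 to 5000 nt 0.54 (215). With group means taken out, these medians were 0.74, 0.53, 0.38 and 0.29 in the same order, against 0.29 for divergent pairs, so that the wider gap no longer stood higher. Among combinations with no look-alike and at most 2 other peaks nearby, the medians were 0.73 for the same strand (361), 0.58 for convergent (34), 0.24 for the wider divergent gap (103) and 0.16 for divergent pairs (113). With library totals the same 4 medians were 0.76, 0.50, 0.48 and 0.43. With group means taken out they were 0.52, 0.335, 0.16 and 0.14. The differences between arrangements were not tested. Within the stand-alone pairs, r did not follow the gap in steady steps: the medians per 100 nt of gap were 0.26, 0.12, 0.07, 0.10 and 0.27.

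Some pairs were tied closely even with group means taken out. Among the 84 pairs with both peaks at 10 CPM or more, the highest r belonged to the stand-alone pair P097, at chr17:44793803-44793991 and chr17:44794037-44794200, with r of 0.98 (0.96 with group means taken out). Its minus peak had 71.1, 26.7 and 63.5 CPM in soleus R3 and its plus peak 53.4, 26.8 and 70.7 CPM. In soleus R7 the minus peak had 132, 54.6 and 3.98 CPM and the plus peak 129, 45.4 and 5.20 CPM, so that the 2 strands shared the wide spread between animals. In EDL R3, animal 4 had 209.8 and 167 CPM, whereas the other 2 animals had 3.79 and 11.4 CPM on the minus strand and 1.75 and 12.5 CPM on the plus strand. Both strands were therefore high in the same libraries and low in the same libraries. The 2 other pairs of that site, P095 and P096, which were picked after their values were seen, had r of 0.90 and 0.85. The next highest were P164 (copied, chr7:733735-733808 and chr7:734294-734345, r of 0.91) and P109 (clustered, chr2:128824280-128824380 and chr2:128824507-128824538, r of 0.91).

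In other pairs the strands exchanged their share. The lowest r belonged to the stand-alone pair P012, at chr1:48033247-48033467 and chr1:48033638-48033856, with r of -0.72 (-0.75 in soleus and -0.60 in EDL). Its minus peak had 37.3, 42.1 and 39.6 CPM in soleus controls and 124, 100.1 and 63.6 CPM at R1, while its plus peak had 55.2, 46.2 and 56.0 CPM in controls and 21.8, 31.2 and 30.9 CPM at R1. The groups did not overlap on either strand, so the pair leaned to the plus side in controls and to the minus side at R1. The log2 fold change was 1.32 on the minus strand (SE 0.22, edgeR adjusted p = 0.000236) and -0.87 on the plus strand (SE 0.19, adjusted p = 0.00202), which is short of the size required for a call. The call of the minus peak was lost without R1 animal 18. At R3 the values were back near the controls, at 49.7, 38.0 and 42.4 CPM on the minus strand and 44.7, 48.5 and 45.4 CPM on the plus strand.

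P133, at chr4:10822732-10822937 and chr4:10823131-10823446, had r of -0.63 and leaned the other way. Its minus peak had 17.5, 16.7 and 16.9 CPM in soleus controls and 10.5, 12.5 and 12.5 CPM at R1, and its plus peak had 19.6, 19.9 and 24.3 CPM in controls and 98.8, 47.0 and 51.4 CPM at R1. The plus strand rose (log2 fold change 1.67, SE 0.28, adjusted p = 0.000221), and the minus strand was lower in every R1 library without passing the test (-0.49, SE 0.21, adjusted p = 0.0643). The call of the plus peak was lost without R1 animal 18. In P117, at chr2:257425135-257425572 and chr2:257425619-257425847, with r of -0.52, the strands differed by muscle: the minus peak was lower in soleus controls (9.05, 6.24 and 9.62 CPM) than in EDL controls (18.4, 13.8 and 17.4 CPM), and the plus peak was higher (11.7, 14.4 and 15.2 against 7.37, 7.95 and 7.69 CPM). The ratio of plus to minus was 1.83 higher in soleus on the log2 scale (SE 0.48, limma adjusted p = 0.0132), a call that was lost without soleus C animal 7, EDL C animal 6 or EDL C animal 8.

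To follow disuse and recovery, each phase was compared with the control group of the same muscle. A peak was called when the Benjamini-Hochberg adjusted p of edgeR's quasi-likelihood test over all peaks was under 0.05 and its fitted fold change over 2.38-fold in either direction. In whole muscle, fewer cells of a type and less RNA per cell cannot be told apart. During unloading few members were called in soleus. Of 358 members tested, 1 was called at D1, where 1.97% of all tested peaks were called, 0 at D3 (0.721%) and 0 at D7 (0.122%). An unadjusted p under 0.05 was reached by 39 members at D1, by 38 at D3 and by 37 at D7. Of all 9844 tested peaks, 1532, 1411 and 1087 reached it at these phases. DESeq2 called 4 members at D7.

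More members were called on the first day of recovery in soleus than at any other phase of either muscle. At R1, 60 of 358 members were called, 33 higher and 27 lower. This is 16.8% of the members, while 23.3% of all tested peaks were called in this comparison (14.7% higher and 8.6% lower), so the members were not called more often than other peaks. The median log2 fold change was -0.29 over the members and 0.05 over all tested peaks. Both directions occurred in each kind. Of the stand-alone members, 27 rose and 3 fell of 225 tested, of the clustered members 5 rose and 20 fell of 66, and of the copied members 1 rose and 4 fell of 68, and the difference between kinds was not tested.

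Of the 178 pairs with both peaks tested, 15 had both peaks called in the same direction, 8 up and 7 down, at 10 sites. In 31 pairs a single peak was called, and no pair was called in opposite directions. Among pairs with any call, both peaks were called in 32.6%, against 37.5% for convergent, 35.3% for the wider divergent, 34.3% for overlapping and 49.7% for same-strand combinations, values that were not tested against each other.

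The R1 result rests on libraries that differ in lane: all control libraries were sequenced in lane 1 and all R1 libraries in lane 4. With the lane as a block in a fit over 42 libraries, 1 member was called and no pair had both peaks called, so the phase and the lane are told apart there only through the other phases. Besides the R1 libraries, lane 4 held only soleus R3 animal 4, so few libraries carry that separation. EDL R1 and the EDL controls lay in the same lanes, and 0 of 9341 tested peaks were called between them. Whether the lane acted alike in both muscles was not tested. Without the 8 libraries that stand apart, 52 members and 11 pairs were called, with R1 animal 18 as the only R1 library, whose spread is then assumed to be that of the other groups. The pairs with both peaks called numbered 9 without control animal 7 and 9 without R1 animal 20. The lane limits the other phases as well. Besides the controls, lane 1 held soleus D1 animal 24 and no library of EDL D1, D3, D7, R3 or R7. Comparisons of those phases with the controls are therefore not separated from the lane either.

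**Figure D4:**
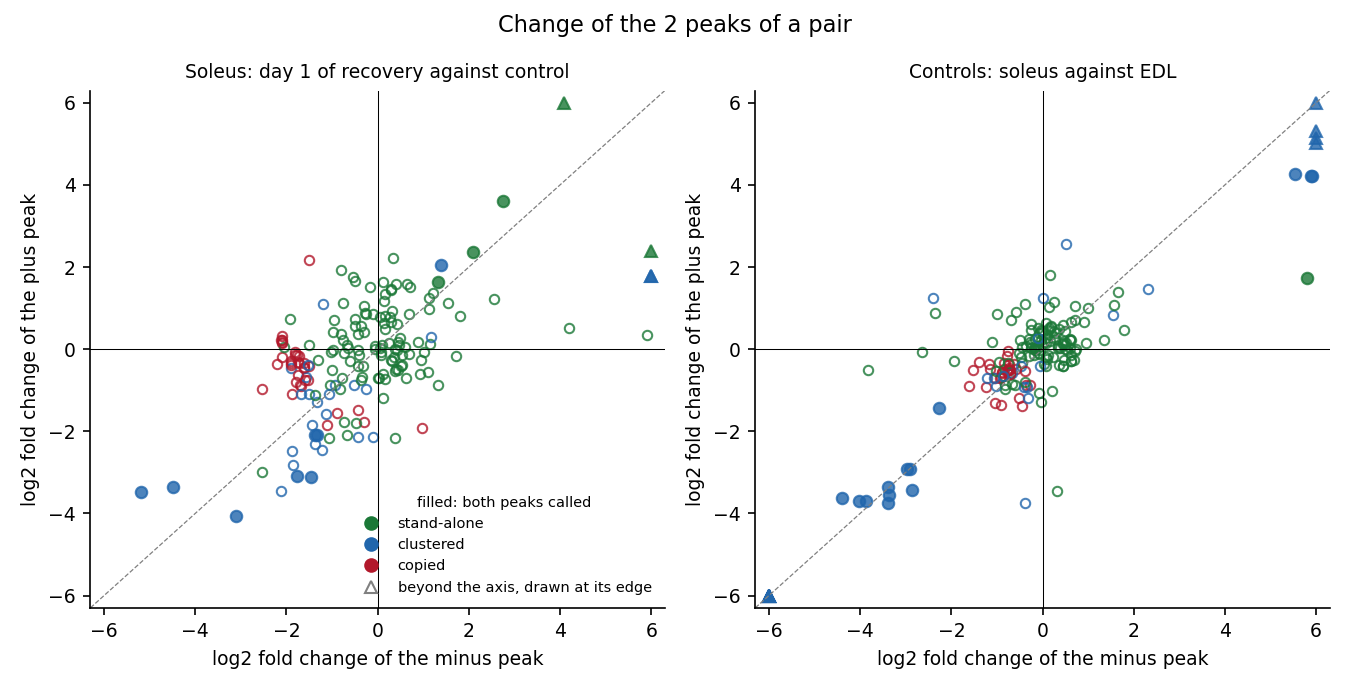
Log2 fold change of the plus peak (y axis) against that of the minus peak (x axis) of each pair, for soleus R1 against control (left, 178 pairs) and soleus against EDL in controls (right, 190 pairs), coloured by kind and filled where both peaks were called in the same direction. No pair was called in opposite directions in either comparison. The 4 and 13 pairs beyond an absolute value of 6, most of them with a group at 0 tags, are drawn as triangles at the edge.

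Rising pairs at R1 were followed where both peaks were called, every R1 library lay above every control and both peaks reached 10 CPM, which held for 6 pairs. The 5 with the largest rise are given in full, and the sixth, the stand-alone pair P136 at chr4:123118077-123118305 and chr4:123118320-123118507, rose by 1.33 on the minus strand (SE 0.31, edgeR adjusted p = 0.00275) and 1.62 on the plus strand (SE 0.32, adjusted p = 0.000933) on the log2 scale. The largest rise on both strands was in the stand-alone pair P058, at chr12:6341640-6342061 and chr12:6342074-6342235, whose peaks are 12 nt apart. Its minus peak had 24.2, 15.5 and 34.8 CPM in soleus controls and 722, 212 and 293 CPM at R1 (log2 fold change 4.09, SE 0.42, edgeR adjusted p = 4.52e-06). Its plus peak had 0 tags in all 3 controls and 31.1, 10.2 and 15.5 CPM at R1, at least 184-fold higher than the level that 3 tags over the control group would give. This peak averaged 1.38 CPM over the 42 libraries. It passed the 10 TPM of a listed peak only through soleus R1, so a rise there was favoured by its selection. At R3 the minus peak was back at 27, 23.9 and 31.9 CPM and the plus peak at 0.361, 0 and 0 CPM.

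P187, a stand-alone pair at chr9:61690548-61691119 and chr9:61691153-61691713 with a gap of 33 nt, rose on both strands. Its minus peak had 31.5, 25 and 37.4 CPM in soleus controls and 368, 126 and 115 CPM at R1 (log2 fold change 2.74, SE 0.36, edgeR adjusted p = 2.67e-05). Its plus peak had 154, 158 and 158 CPM in controls and 2996, 1422 and 1147 CPM at R1 (3.61, SE 0.31, adjusted p = 1.15e-06). This plus peak was the single member still called with the lane as a block (4.06, SE 0.82, adjusted p = 0.0350). In EDL it had 158, 137 and 174 CPM in controls and 194, 342 and 291 CPM at R1, which did not pass the test (0.76, SE 0.30, adjusted p = 0.438).

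P148, at chr5:114013869-114014418 and chr5:114014490-114014789, was strongly uneven and rose by a similar fold on both strands. Its minus peak went from 112, 106 and 147.8 CPM to 947, 242 and 319 CPM (2.09, SE 0.41, edgeR adjusted p = 0.000761), and its plus peak from 2.48, 1.5 and 3.25 CPM to 22.3, 5.89 and 7.86 CPM (2.36, SE 0.51, adjusted p = 0.00163). The ratio of the strands moved by 0.31 on the log2 scale (SE 0.37, limma adjusted p = 0.488), and the call of the minus peak was lost without R1 animal 18.

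The clustered pair P179, at chr8:55176705-55178227 and chr8:55178466-55179112, was among the most active outside the copied pairs. Its plus peak went from 5833, 4994 and 5054 CPM in soleus controls to 27220.0, 21433 and 14885 CPM at R1 (2.04, SE 0.39, edgeR adjusted p = 0.000617), and its minus peak from 100.5, 94.9 and 106 CPM to 348, 200.5 and 224 CPM (1.40, SE 0.22, adjusted p = 0.000157). The call of its minus peak was lost without R1 animal 18.

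The fifth rise was uneven between animals. In the clustered pair P119, at chr20:4958731-4958752 and chr20:4959171-4959401, the minus peak had 0 tags in soleus controls and 2356, 279.7 and 0.295 CPM at R1, so that R1 animal 21 was close to the controls. The plus peak rose in all 3 animals, from 19.4, 13.9 and 20.7 CPM to 91.4, 42.4 and 45.5 CPM (1.78, SE 0.41, edgeR adjusted p = 0.00264).

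A single falling pair met the same rule. In the clustered pair P088, at chr15:33642183-33642274 and chr15:33642428-33642786, the minus peak went from 33.0, 37.3 and 20.1 CPM in soleus controls to 6.06, 10.2 and 9.73 CPM at R1 (-1.77, SE 0.40, edgeR adjusted p = 0.00221). The plus peak went from 63.0, 87.9 and 39.3 CPM to 15.0, 3.34 and 3.34 CPM (-3.10, SE 1.16, adjusted p = 0.0412), and this call remained in 1 of 6 fits that each left out 1 library, the fit without R1 animal 18. P088 belongs to the site on chromosome 15 where 4 pairs fell on both strands. Of the 52 other peaks tested in that site, 39 fell and 2 rose. The other 3 pairs that fell on both strands were P028 and P029 within chr1:215679214-215747037 and P129 within chr3:161243652-161299032.

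**Figure D5:**
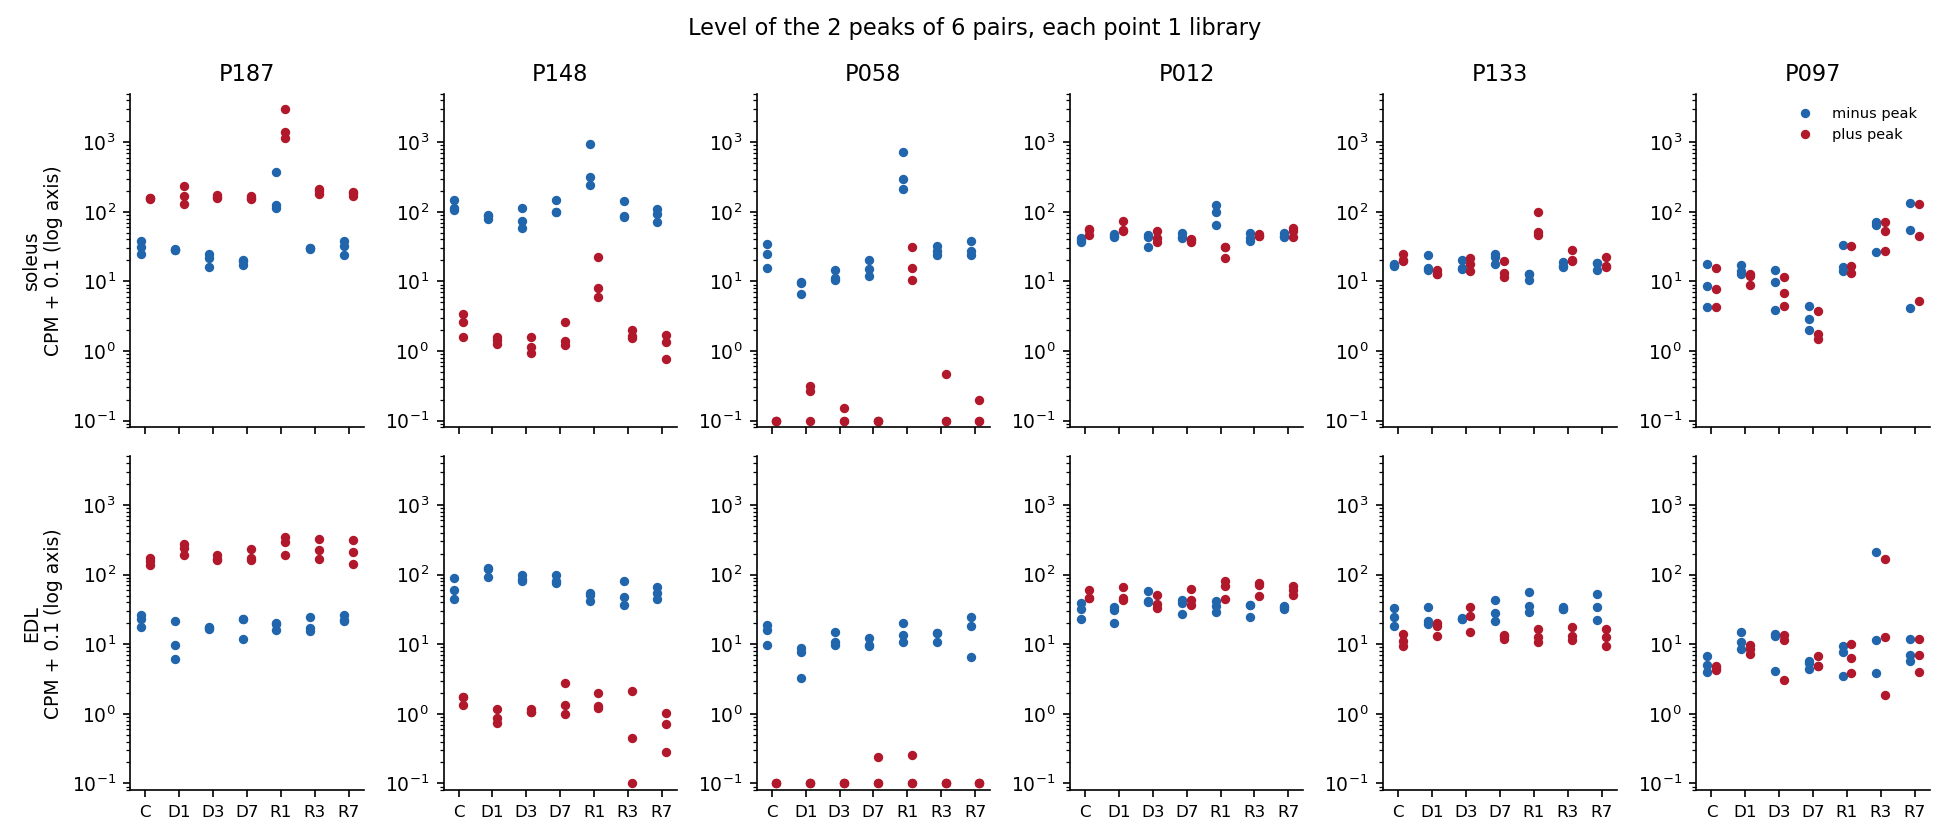
Level of the minus peak (blue) and the plus peak (red) of 6 pairs in each library (y axis, CPM with 0.1 added, log axis) by phase (x axis), for soleus (top) and EDL (bottom), where each point is 1 library. P187, P148 and P058 are highest on both strands at soleus R1, the strands of P012 and P133 lie on opposite sides of the controls there, and P097 varies between animals with both strands together.

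The members called at R1 were followed through the other phases. The 33 members called higher at R1 had a median log2 fold change of 1.92 there, 0.37 at R3 and 0.28 at R7, after -0.19 at D1, 0 at D3 and -0.02 at D7. The 27 called lower had -2.05, -1.0 and -0.35 at the same 3 phases, after -0.18 at D1, -0.61 at D3 and -0.06 at D7. In EDL, 20 of these were fitted, with a median of -0.65 on the first day of reloading, where none was called. Their EDL medians were 0.03, -0.74 and -0.63 over the 3 unloading phases, and -0.46 and -0.54 later in reloading. Lower EDL medians were thus not limited to reloading. Of the 33 called higher, 27 were fitted in EDL. They had 0.13 on the first day of reloading and 0.06 to 0.41 in the other EDL phases. None of the members was called lower at soleus R3 or R7. These members were chosen at R1, and all phases share the same control libraries, so the values are a description, and values chosen at R1 for their size tend to be smaller elsewhere. By the same test, 1 member was called in soleus at R3 (1.65% of all tested peaks) and 5 at R7 (4.18%), all 6 of them higher. A test over all 6 phases together called 63 members, 17.6%, against 28.3% of all tested peaks, and 15 members with the lane as a block.

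In EDL few members were called, and a link with the lower median depth of the EDL libraries was not tested. Of 353 members tested, 4 were called at D1 (3.17% of all tested peaks), 6 at D3 (1.33%), 4 at D7 (1.07%) and 0 at R1, R3 and R7, where no peak of the whole table was called (0.0%). The 4 at D7 became 1 or 2 in every fit that left out 1 library, and 0 with the lane as a block. An unadjusted p under 0.05 was reached by 98 members at D3, by 34 each at D1 and D7, and by 43, 38 and 11 members on days 1, 3 and 7 of reloading. Of all 9341 tested peaks, 1674 reached it at D3, 1671 at D1, 1102 at D7, and 900, 1312 and 413 on the 3 days of reloading. At D3, 2 of the 3 libraries stand apart. DESeq2 called 1 member at R1. The test over all 6 phases called 15 members, 4.25%, against 4.88% of all tested peaks, and 41 without D3 animal 11.

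Whether the R1 change differed between the muscles was tested by an interaction term. It was called in 24 of 373 members, 13 with a more positive change in soleus and 11 with a more negative change, which is 6.43% of the members against 10.3% of all tested peaks (5.51% and 4.75% by direction), and 26 members were called with the lane as a block. Stand-alone members made up 15 of the 24. No copied member was called. Leaving out a library gave 13 without soleus R1 animal 18, 14 without EDL control animal 6, 15 without EDL R1 animal 20 and 39 without EDL R1 animal 18. The change of balance differed between muscles in 9 of 189 pairs (4.76%). This count ran from 0 to 10 when 12 libraries were left out in turn, with 0 without soleus R1 animal 18. The minus peak of P058, both peaks of P187 and the minus peak of P148 were among the 24 members called.

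The balance of a pair was followed by the log2 ratio of plus to minus tags, tested by limma with an adjusted p under 0.05 over the pairs. At soleus R1, 29 of 175 pairs (16.6%) had a changed balance, 18 toward the plus strand and 11 toward the minus strand. Nearly all were stand-alone pairs, 26 of 113 tested, with 2 of 28 clustered and 1 of 34 copied pairs. In 13 of the 29, neither peak was called alone, in 12 a single peak was called and in 4 both were. In 19 of the 29 the fitted changes of the 2 strands had opposite signs. Without the 8 libraries that stand apart, 25 pairs were called, without control animal 6, 18, and with the lane as a block, 0. At D1, D7, R3 and R7 no soleus pair was called and at D3 1 was (0.571%), while an unadjusted p under 0.05 was reached by 11, 14, 22 and 22 pairs at the first 4 of these phases. The joint test over all phases called 40 soleus pairs (22.9%), and 0 with the lane as a block, 8 without the 8 libraries that stand apart and 25 without control animal 6.

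The 4 largest fitted shifts of balance at R1, among called pairs with both peaks at 5 CPM or more, were P120, P058, P062 and P145. In the first 3 a strand had 0 tags in the soleus controls, so the size of the fitted shift depends on the added 0.5 tags, is no bound, and sets their place in this order. These peaks (P120 minus, P058 plus and P062 minus) averaged 0.70, 1.38 and 0.50 CPM over the 42 libraries. Only soleus R1 took them past 10 TPM, which every listed peak reached, so a rise there was favoured by their selection. In P120, whose minus peak at chr20:4959099-4959162 lies 8 nt before the plus peak it shares with P119, the minus strand had 0 tags in soleus controls and 18.2, 6.76 and 4.13 CPM at R1, at least 93.9-fold higher. The ratio moved toward the minus strand by -5.56 (SE 0.86, limma adjusted p = 0.000264). In P062, at chr12:47073712-47073763 and chr12:47074129-47074317, the minus peak went from 0 tags to 12.7, 4.62 and 2.06 CPM, at least 62.6-fold higher, and the plus peak from 9.27, 12.1 and 8.40 CPM to 77.8, 35.7 and 38.9 CPM. Its ratio moved by -4.26 (SE 0.90, adjusted p = 0.00385). In P058 the ratio moved toward the plus strand by 4.40 (SE 1.04, adjusted p = 0.00728), since the plus strand came from 0 tags. The ratio calls of P120 and P062 were lost without R1 animal 18. In the copied pair P145, at chr5:91134317-91134531 and chr5:91134576-91134817, the ratio rose by 3.82 (SE 1.17, adjusted p = 0.0298), but the call was kept in 1 of 6 fits that left out a library. The ratios of P012 and P133, described above, moved by -2.14 (SE 0.33, adjusted p = 0.000264) and 2.08 (SE 0.40, adjusted p = 0.00200), and both calls were kept in all 6. Shifts of these 2 ratios were favoured by the choice of the pairs for a low r.

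In EDL no pair had a changed balance at R1 (0.0%), with 12 pairs at an unadjusted p under 0.05, nor at D7, R3 or R7, with 9, 12 and 6 such pairs. At D1, 4 of 172 pairs were called (2.33%), all of them stand-alone pairs with opposite signs of the 2 strands. At D3, 54 of 172 pairs were called (31.4%), made up of 29 of 34 copied, 16 of 33 clustered and 9 of 105 stand-alone pairs. The count at D3 was 0 without animal 9, 6 without animal 10, which are the 2 D3 libraries of EDL that stand apart, and 0 without the 8 libraries, which leaves animal 11 as the only D3 library. It was also 0 with the lane as a block and 23 by edgeR's diffSpliceDGE. The joint test over all EDL phases called 33 pairs (19.2%), and 0 without the 8 libraries.

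The 2 muscles also differed at the pairs before any unloading. In controls, 60 of 373 members differed between soleus and EDL, 19 higher and 41 lower in soleus. This is 16.1% of the members, against 13.1% of all tested peaks (7.19% higher and 5.87% lower). Of the 190 pairs, 27 had both peaks called in the same direction, 8 higher and 19 lower in soleus, none in opposite directions and 9 with a single peak called. Among pairs with any call, both peaks were called in 75%, against 81.0% for convergent, 61.5% for the wider divergent, 67.6% for overlapping and 80.5% for same-strand combinations, again without a test between them.

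These 27 pairs lay at only 7 sites, and 26 of them were clustered pairs. All 9 pairs of the chromosome 10 site were lower in soleus, and 50 of the 51 other peaks tested there were lower as well. Of the 8 pairs of the chromosome 15 site, 7 were higher in soleus, as were 48 of its 52 other peaks. A further 4 pairs within chr1:197857392-198229214, 3 within chr3:161243652-161299032, 2 within chr1:215679214-215747037 and P013 were lower in soleus. The single stand-alone pair was P068, at chr14:42005940-42006362, which was higher in soleus on both strands. Leaving the clustered and copied pairs out, 8 of 225 stand-alone members were called.

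The chromosome 10 site is where a genome browser view of the study shows Myh4, the gene of the fast myosin heavy chain of type IIb fibres, on the plus strand. As read from that picture, P036 lies near the annotated start of the gene, P035 upstream of it and the other 7 pairs along its length, and this placement is approximate. In P036, at chr10:53778144-53778270 and chr10:53778436-53778683, the minus peak had 0 tags in all 3 soleus controls and 14.7, 7.53 and 13.1 CPM in EDL controls. The plus peak had 0 tags in soleus and 39.9, 18 and 21.8 CPM in EDL. The soleus level was at least 115-fold lower on the minus strand and at least 258-fold lower on the plus strand than in EDL. Peaks with 0 tags in the soleus controls were listed through other libraries, which favoured such a difference.

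P038, at chr10:53783884-53783940 and chr10:53784046-53784104, had 18, 15.1 and 16.6 CPM on the minus strand and 17.3, 10.9 and 19.1 CPM on the plus strand in EDL controls, and 0 tags on both strands in soleus controls, at least 160.5-fold and 153-fold lower. In P041, at chr10:53795596-53795679 and chr10:53795772-53795935, the EDL controls had 18.3, 20.9 and 25.8 CPM and 74.9, 81.1 and 69.2 CPM. Its soleus controls had 0 tags on the minus strand, at least 210.1-fold lower, and 0, 0.250 and 0 CPM on the plus strand. EDL and soleus did not overlap on either strand of any of the 3 pairs. At EDL R1 the levels of P038 were 8.71, 3.56 and 4.45 CPM on the minus strand and 7.32, 10.7 and 4.93 CPM on the plus strand, each below the lowest control value of its strand, and neither strand passed the test (edgeR adjusted p = 0.240 and 0.363). At EDL D3 they were 2.11, 2.27 and 5.94 CPM and 6.34, 4.96 and 6.09 CPM, and at D7 6.43, 5.27 and 4.83 CPM and 5.45, 6.14 and 6.66 CPM, also below every control. Of these, the minus peak at D3 was called (-2.31, SE 0.42, adjusted p = 0.0107), and the other adjusted p-values were 0.0580, 0.0586 and 0.0890. P038 was chosen for its high level in these same EDL controls, so lower values at other phases are favoured by that choice. The D3 values of 2.11 and 2.27 CPM are from animals 9 and 10, which stand apart, and no fit of this peak without them is given. The other pairs of the site were not followed through the phases.

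On chromosome 15 the difference ran the other way. P084, at chr15:33615001-33615091 and chr15:33615135-33615229, had 20.6, 23.8 and 14.8 CPM on the minus strand in soleus controls and 0, 0.836 and 0.248 CPM in EDL controls (log2 difference 6.51, SE 1.04, edgeR adjusted p = 1.08e-05). Its plus strand had 19.7, 27.6 and 14.4 CPM against 0.101, 1.255 and 0.992 CPM (5.15, SE 1.51, adjusted p = 0.0142), a call that was lost without EDL C animal 6 or 8. P088 of the same site had 33.0, 37.3 and 20.1 CPM against 0.101, 0.836 and 0.744 CPM on the minus strand (6.17, SE 0.77, adjusted p = 2.65e-07), and on the plus strand 63.0, 87.9 and 39.3 CPM against 0.909, 2.93 and 2.73 CPM (5.02, SE 1.22, adjusted p = 0.00263). Both strands were thus far higher in the slow muscle in every control.

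The balance of the strands differed between the muscles in 10 of 189 pairs (5.29%), 6 of them with a higher plus-to-minus ratio in soleus and 4 with a lower ratio, and in 6 pairs without soleus control animal 7. Stand-alone pairs made up 7 of these. Among the pairs that passed, P060, P043 and P184 had the largest fitted differences, of which that of P043 cannot be read as a change of balance. In the stand-alone pair P060, at chr12:37210437-37210659 and chr12:37210896-37211130, the minus peak was similar in soleus (11, 9.86 and 11.2 CPM) and EDL (9.19, 9.20 and 7.19 CPM), while the plus peak had 2.19, 0 and 0 CPM in soleus and 17.9, 3.76 and 5.21 CPM in EDL. The ratio was lower in soleus by -5.42 (SE 1.19, limma adjusted p = 0.00252), a size that depends on the added 0.5 tags because 2 of the 3 soleus controls had no plus-strand tag.

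P043, at chr10:53797019-53797105 and chr10:53797328-53797599, belongs to the site on chromosome 10. Its ratio differed by -4.33 (SE 1.06, limma adjusted p = 0.00654), with 407, 567 and 449 CPM on the plus strand in EDL and 0.365, 0.375 and 0 CPM in soleus, and 6.16, 6.69 and 3.72 CPM on the minus strand in EDL and 0 tags in soleus. With 5, 3 and 0 plus-strand tags and no minus-strand tag in the soleus controls, its soleus ratio is set by the added 0.5 tags, and the call was also lost without soleus C animal 8 or EDL C animal 6. In P184, at chr9:16614031-16614262 and chr9:16614389-16614844, the plus peak had 3.43, 2.50 and 1.76 CPM in soleus and 41.7, 24.3 and 39.7 CPM in EDL, while the minus peak had 5.76, 4.87 and 5.28 CPM and 7.48, 3.35 and 9.42 CPM, which overlapped. Its ratio was lower in soleus by -3.52 (SE 0.54, adjusted p = 2.48e-05), and this call, like that of P060, was kept in all 6 fits that left out a library.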

How the data were processed

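CAGE libraries were made by the authors from whole soleus and EDL muscle, trimmed (Trimmomatic, version 0.38 per the labels), mapped to Rnor_6.0, and aggregated into start positions and peaks. The labels name BWA and HISAT2 and the study's methods STAR, so the aligner behind each file was not settled. The deposited counts per peak (tags, not normalized) and per start position were used, whereas the deposited TPM columns were left out. Every peak of the table reached 10 TPM in at least 1 library. A peak with 0 tags in a group therefore entered through other groups, and its difference from them was favoured by this selection. In 1 library checked, the counts of all 9969 peaks equalled the sums over their start positions.

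CPM and log2 values (prior count 2) used TMM sizes. Peaks were tested with edgeR 4.0.16 (quasi-likelihood, filterByExpr), per muscle for phases and over all 42 libraries for muscle and interaction, with R 4.3.3, limma 3.58.1 and DESeq2 1.42.0. The study's methods state DESeq2, which is the alternative here. The balance was tested by limma on log2((plus + 0.5)/(minus + 0.5)) in pairs with a mean of at least 10 tags per peak. All tests are two-sided. The scripts were tested on simulated data. Floors of 3 tags cover counting error only.

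Both muscles of an animal share its number, and the deviations from the group means of its 2 libraries were correlated over 0.1 in 15 of 21 animals (median 0.224, from -0.326 to 0.576, over 9121 peaks).

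Members and lists were chosen with earlier results of these data known. Pairs were named by these rules: the 4 strongest by the geometric mean of both peaks; the 5 largest rises and falls at soleus R1 and the 3 largest between muscles, with both peaks called, no overlap of groups and at least 10 CPM; the 4 (R1) and 3 (muscles) largest called shifts of balance at 5 CPM or more; and the 3 highest and lowest r at 10 CPM or more. No pair was called in opposite directions at soleus R1 or between muscles. Alternatives were other size factors, no filter, DESeq2, diffSpliceDGE, lane or animal as a block, other gaps, 1 minus peak (the nearest) per plus peak, a pseudocount of 5 and a prior count of 0.5. Leaving out each library in turn, pairs without look-alikes, stand-alone pairs and the fit without 8 libraries were also run, and the last 3 were added after seeing the data.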

Additional observations from a re-analysis of the deposited data

Results flagged for a closer look

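The change at R1 differed between soleus and EDL, by an interaction term over all 42 libraries, in 24 members, and the change of balance in 9 pairs (4.76% of 189 tested). The 9 pairs became 0 to 5 without any of 9 of the 12 libraries in turn (0 without soleus R1 animal 18), 4 without the 8 libraries that stand apart, and 17 with the animal as a block. Each value below is the change in soleus minus the change in EDL on the log2 scale, with edgeR's adjusted p for peaks and limma's for ratios. Peak changes of a single muscle given beside them come from the fit of that muscle, so they do not subtract exactly to the value.

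Among the pairs described above, the minus peak of P058 differed by 4.01 (SE 0.57, edgeR adjusted p = 2.26e-05), with 4.09 in soleus and -0.02 in EDL. In P187 the minus peak differed by 2.94 (SE 0.49, adjusted p = 0.000176) and the plus peak by 2.75 (SE 0.42, adjusted p = 6.01e-05). The minus peak of P148 differed by 2.44 (SE 0.50, adjusted p = 0.00187). The plus peak shared by P119 and P120 differed by 2.43 (SE 0.65, adjusted p = 0.0125), with 1.78 in soleus and -0.74 in EDL. Its ratio in P120 differed by -5.18 (SE 1.51, limma adjusted p = 0.0375), but the minus peak of P120 had 0 tags in both control groups and in EDL R1, so the EDL change of this ratio is set by the added 0.5 tags and the size cannot be read.

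The change also differed between muscles in 2 of the pairs with the lowest r, whose choice by r favoured opposite moves of their strands. The ratio of P012 differed by -2.26 (SE 0.58, limma adjusted p = 0.0201), with -2.14 in soleus and 0.12 in EDL. In P133 the plus peak differed by 1.42 (SE 0.42, edgeR adjusted p = 0.0222) and the ratio by 2.53 (SE 0.64, limma adjusted p = 0.0201).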

How the results depend on the processing

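Of 191 alternatives other than leaving out a library, 151 stayed within 1.5 times the count, or within the spread. With the lane as a block, soleus R1 had 1 member, 0 pairs with both peaks and 0 balance shifts, the soleus joint tests 15 members and 0 shifts, EDL D7 0 members and EDL D3 0 shifts. DESeq2 called 4 members at soleus D7, 1 at EDL R1, 9 at EDL D7 and 24 in the EDL joint test. Library totals gave 2 members at EDL D7 and a median r of 0.5022, and soleus alone gave 0.2445. Gaps of at most 200 nt gave 2 members at EDL D7 and 39 between muscles. diffSpliceDGE gave 47 shifts at soleus R1 and 23 at EDL D3 and was not run for joint tests, and the pseudocount of 5 gave 16 between muscles. Without the 8 libraries the median r was 0.4224, and the joint tests gave 8 (soleus) and 0 (EDL) shifts. Without look-alikes the EDL joint test gave 17 shifts. The cause of these moves was not tested. Stand-alone pairs, which by construction hold fewer peaks (225 of the 374 members), gave 30, 41, 1, 8, 8 and 15 members (soleus R1, soleus joint, EDL D7, EDL joint, muscles, interaction). They also gave 5 and 1 pairs with both peaks (R1, muscles), 9 EDL shifts, a median r of 0.1566 and a weaker share of 27.77%.

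With the animal as a replicate block, which pairs both muscles of a rat, 62 members, 28 pairs with both peaks and 11 balance shifts were called between muscles, and 24 members and 17 balance shifts in the interaction.

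Leaving out 1 library at a time gave, for members, 45 to 76 at soleus R1 (45 without C animal 6), 0 at soleus D7, 54 to 85 in the soleus joint test, 0 at EDL R1, 1 to 2 at EDL D7, 10 to 41 in the EDL joint test (41 without D3 animal 11), 55 to 57 between muscles and 13 to 39 in the interaction (13 without soleus R1 animal 18, 39 without EDL R1 animal 18). Pairs with both peaks called numbered 9 to 16 at R1 (9 without C animal 7 or R1 animal 20) and 22 to 26 between muscles. Balance shifts numbered 18 to 36 at soleus R1 (18 without C animal 6), 25 to 57 and 0 to 60 in the soleus and EDL joint tests (25 without C animal 6, 0 without D3 animal 9, 60 without D3 animal 11), 0 to 1 at EDL R1 (1 without R1 animal 18), 6 to 11 between muscles (6 without soleus C animal 7) and 0 to 10 in the interaction.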
